A study of Mus musculus with 6 samples.

Results

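The TGF-β genes examined here are the ligands Tgfb1, Tgfb2 and Tgfb3, the latent TGF-β binding protein gene Ltbp1, the receptors Tgfbr1, Tgfbr2 and Tgfbr3, and the Smads Smad2, Smad3 and Smad7. These 10 genes, of 49939 in the RefSeq annotation of GRCm38 used here, were chosen by name, and their chromatin was described by the ATAC-seq peaks that lay in the gene span or within 20 kb of it. Peaks of the 6 libraries that shared 1 bp or more were joined into 89410 regions, of which 122 lay at the 10 genes, 90 overlapping a gene span and 32 outside it.

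ATAC-seq marks open chromatin by the sites where the Tn5 transposase can insert. The study compared immortalized mouse osteoblasts with floxed Fam20c alleles (OB Fam20c f/f, 3 libraries) with the Fam20c-deficient cells made from them by a lentivirus carrying Cre recombinase (OB Fam20c KO, 3 libraries), both grown in αMEM with fetal bovine serum and with no other treatment named. Fam20c encodes a kinase of the secretory pathway that phosphorylates secreted proteins. The KO cells are a derivative of 1 line, a control virus is not given in the sources used here, and nothing in the labels says that the replicates were separate cultures, so that each p-value measures the spread between these libraries only.

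TGF-β is made as a latent complex that LTBP1 tethers to the extracellular matrix, and bone matrix is a large store of it. Once released, the ligand binds TGFBR2, which phosphorylates and so activates TGFBR1, while TGFBR3 (betaglycan) presents the ligand, TGF-β2 above all. Activated TGFBR1 phosphorylates SMAD2 and SMAD3, which enter the nucleus with SMAD4, and SMAD7 is an inhibitory Smad that TGF-β itself induces. In bone, TGF-β signalling promotes the recruitment and early growth of osteoblast precursors and restrains their later maturation.

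The lists held 64033, 62781 and 74797 peaks in f/f replicates 1 to 3 and 64141, 64582 and 32958 in KO replicates 1 to 3, so KO replicate 3 had the shortest list and a peak missing from it need not mean closed chromatin. Peaks were compared by rank. The list standing is the percentile of a peak by −log10 q within its own list, with 100 the highest, and the shared standing is the same percentile among the 29849 regions found in every one of the 6 lists. The promoter of Fam20c kept a peak in all 6 libraries, with list standings of 92.8, 94.8 and 93.0 in f/f and 97.8, 96.3 and 95.1 in KO, and a peak at the promoter does not check the deletion. Of 9 osteoblast markers, 6 had a peak at a start or span end in all 6 libraries, among them Runx2, Sp7 and Col1a1. Ibsp and Bglap had none. Where no start was listed, as for Sp7, Col1a1, Dlx5, Col2a1, Myod1 and Cdh5, a peak at an end of the gene span was counted. Of 13 markers of other cells, 0 had such a peak in all 6 libraries and 10 had none in any. The cartilage marker Col2a1 had one in 3 f/f and 2 KO libraries, as did the osteoblast marker Alpl. The muscle marker Myod1 had one in 2 f/f and 2 KO libraries, and the endothelial marker Cdh5 in 1 and 1.

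The promoters of Tgfbr1 and Ltbp1 are shown because RefSeq lists 2 start windows for each, and those of Tgfb1 and Tgfb2 because the ligands differ in promoter type. The RefSeq table for GRCm38 gave 8 windows for 6 of the 10 genes, each of 250 bases before and 50 bases after the start. In the sequences below, read 5′ to 3′ on the strand of the gene, capitals mark Smad boxes (CAGAC), GC boxes (GGGCGG) and TATA boxes (TATAAA) on either strand.
Tgfb1 start: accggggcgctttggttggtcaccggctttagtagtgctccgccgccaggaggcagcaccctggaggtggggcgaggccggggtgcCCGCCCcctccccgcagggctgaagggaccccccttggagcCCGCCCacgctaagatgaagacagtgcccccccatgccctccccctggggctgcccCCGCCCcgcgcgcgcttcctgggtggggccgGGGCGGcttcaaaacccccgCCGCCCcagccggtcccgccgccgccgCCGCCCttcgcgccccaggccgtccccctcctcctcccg
Tgfb2 start: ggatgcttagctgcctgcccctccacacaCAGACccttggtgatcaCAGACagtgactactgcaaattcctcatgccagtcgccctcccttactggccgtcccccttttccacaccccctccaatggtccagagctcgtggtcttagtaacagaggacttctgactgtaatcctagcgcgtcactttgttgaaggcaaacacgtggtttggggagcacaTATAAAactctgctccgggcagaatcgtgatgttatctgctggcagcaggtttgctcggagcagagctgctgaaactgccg
Ltbp1 first start: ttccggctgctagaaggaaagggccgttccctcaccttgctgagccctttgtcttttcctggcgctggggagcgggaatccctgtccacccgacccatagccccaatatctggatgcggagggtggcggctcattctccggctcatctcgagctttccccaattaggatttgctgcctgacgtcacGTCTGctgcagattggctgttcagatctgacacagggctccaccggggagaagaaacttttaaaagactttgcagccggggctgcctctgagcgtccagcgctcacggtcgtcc
Ltbp1 second start: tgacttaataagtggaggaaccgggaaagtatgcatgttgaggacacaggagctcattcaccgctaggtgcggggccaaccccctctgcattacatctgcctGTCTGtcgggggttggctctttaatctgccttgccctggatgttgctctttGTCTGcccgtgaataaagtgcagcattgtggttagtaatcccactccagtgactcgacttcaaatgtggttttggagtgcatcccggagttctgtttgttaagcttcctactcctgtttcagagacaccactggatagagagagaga
Tgfbr1 first start: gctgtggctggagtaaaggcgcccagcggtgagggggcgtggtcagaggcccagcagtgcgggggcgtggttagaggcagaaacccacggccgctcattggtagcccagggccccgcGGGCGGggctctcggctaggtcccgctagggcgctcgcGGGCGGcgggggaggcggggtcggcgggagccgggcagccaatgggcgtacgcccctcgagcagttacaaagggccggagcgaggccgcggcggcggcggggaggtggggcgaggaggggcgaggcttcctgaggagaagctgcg
Tgfbr1 second start: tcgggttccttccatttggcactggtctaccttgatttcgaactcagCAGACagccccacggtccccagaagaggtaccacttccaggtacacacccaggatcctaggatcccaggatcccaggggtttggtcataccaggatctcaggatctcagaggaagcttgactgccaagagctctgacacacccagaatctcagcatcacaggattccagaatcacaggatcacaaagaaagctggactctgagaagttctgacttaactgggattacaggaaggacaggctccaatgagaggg

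The 2 starts of Tgfbr1 were unlike in sequence and in peaks. The first window (chr4:47352972-47353271, plus strand) had 74.7% G and C, 34 CG pairs, 2 GC boxes and no Smad box, and carried a peak in all 6 libraries. The second (chr4:47385966-47386265), inside the span, had 52.0% G and C, 3 CG pairs and 1 Smad box, and no list had a peak there. Both starts of Ltbp1 carried a peak in all 6 libraries. The first (chr17:75005279-75005578, plus strand) had 58.7% G and C, 17 CG pairs and 1 Smad box, and the second (chr17:75178531-75178830) had 50.0%, 7 CG pairs and 2 Smad boxes.

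Among the ligands, the Tgfb1 window (chr7:25686752-25687051, plus strand) had 77.0% G and C with 6 GC boxes and no TATA box. The Tgfb2 window (chr1:186705940-186706239, minus strand) had 54.3%, no GC box, 2 Smad boxes and 1 TATA box that begins 31 bases before the start. Over all 32851 promoter windows of the table the median was 52.7% G and C with 7 CG pairs. A Smad box was present in 49.6% of them, a GC box in 35.7% and a TATA box in 13.6%. No Smad box was in the windows of Tgfb1 and Smad3 or in the first of Tgfbr1, and the other 5 windows had 1 or 2. The GC-rich Smad element (GGCGC or GGCCG, 48.3% of all windows) was in 6 of the 8 windows, with 7 matches in the first Tgfbr1 window and 0 in the second. The palindromic Smad element (GTCTAGAC, 0.213%) and the AP-1 element (TGACTCA or TGAGTCA, 5.20%) were in none of the 8. Motif matches describe the letters of these windows and say nothing about binding.

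Of the 8 promoter windows of 6 genes, 7 had a peak in all 6 libraries, and the second Tgfbr1 window had none. Of all promoter windows, 44.2% had a region and 38.3% had a peak in all 6 libraries. Tgfb3, Tgfbr3, Smad2 and Smad7 had no window in the table. Each of these 4 had a peak in all 6 libraries at 1 end of its span and none at the other, and the end with the peak is called the start end below, so that a peak there follows from the choice. Of the 122 regions, 50 (41.0%) had a peak in all 6 libraries, against 33.4% of all regions. A further 18 had one in every library but KO replicate 3, and 24 had one in a single library.

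**Figure D1:**
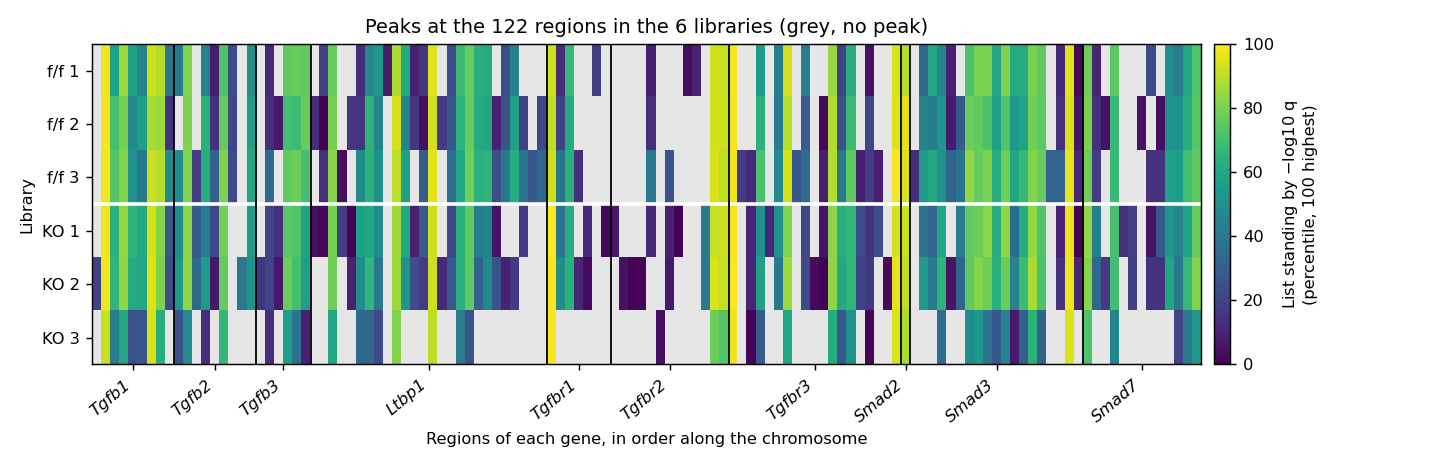
Peaks at the 122 regions of the 10 genes (columns, in order along each chromosome) in the 6 libraries (rows), coloured by list standing by −log10 q in percentiles and grey where the list had no peak. At Tgfb1 7 of 9 regions were in all 6 lists, Smad2 had 1 region only, and KO replicate 3 has the most grey, with peaks in 53 of the regions.

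The number of regions with a peak did not separate the groups. It was 81, 87 and 94 in f/f and 95, 98 and 53 in KO, with means of 87.3 ± 6.51 and 82.0 ± 25.2 (SD, n = 3 each). The KO mean was lower by 5.33 regions (exact permutation test, two-sided, p = 1, where the smallest p that 3 against 3 allows is 0.1). Without KO replicate 3 the sign turned, and the KO mean was 9.17 higher (exact permutation test, p = 0.2). Both of the other KO libraries had more regions than every f/f library. Relative to the number of peaks in each list, the regions made 0.126%, 0.139% and 0.126% in f/f and 0.148%, 0.152% and 0.161% in KO. By that share every KO library was above every f/f library. The share was not tested and was not computed for other genes, so it is not shown to be particular to the TGF-β genes.

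Gene by gene, the numbers of the groups overlapped at all 10 genes. Over 18156 protein-coding genes with a region, every KO library lay above every f/f library at 0.121% and below at 9.95%. Ltbp1, the longest gene at 387 kb, had the most regions, with 18, 23 and 21 in f/f and 20, 19 and 8 in KO. Smad3 followed with 16, 17 and 19 in f/f and 16, 17 and 11 in KO. Smad2, which spans 70.7 kb, had a single region, at its start end, in each of the 6 libraries. Protein-coding genes with a region had a median of 5.

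At Tgfbr1, Tgfbr2 and Smad7, KO replicates 1 and 2 had more regions than the f/f libraries. Tgfbr1 had 4, 3 and 4 regions in f/f and 5, 5 and 1 in KO. Tgfbr2 had 5, 3 and 4 in f/f and 7, 7 and 3 in KO, and Smad7 had 8, 10 and 9 in f/f and 11, 11 and 5 in KO. Some of the Tgfbr2 regions had a peak in a single library, low in its list. Their list standings were 7.0 and 0.9 in KO replicate 1 and 4.6, 0.8 and 1.9 in KO replicate 2. In KO replicate 3 the value was 4.0, and in f/f replicate 1 the values were 3.2 and 10.0. The third receptor, Tgfbr3, overlapped, with 10, 11 and 16 in f/f and 15, 15 and 9 in KO. In 3 of 10 genes KO replicates 1 and 2 thus lay above every f/f library, against 4.43% of all genes. In 0 of 10 they lay below, against 10.0%. These shares were not matched for region number, which was 7, 13 and 13 at Tgfbr1, Tgfbr2 and Smad7 and had a median of 5 over all genes.

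**Figure D2:**
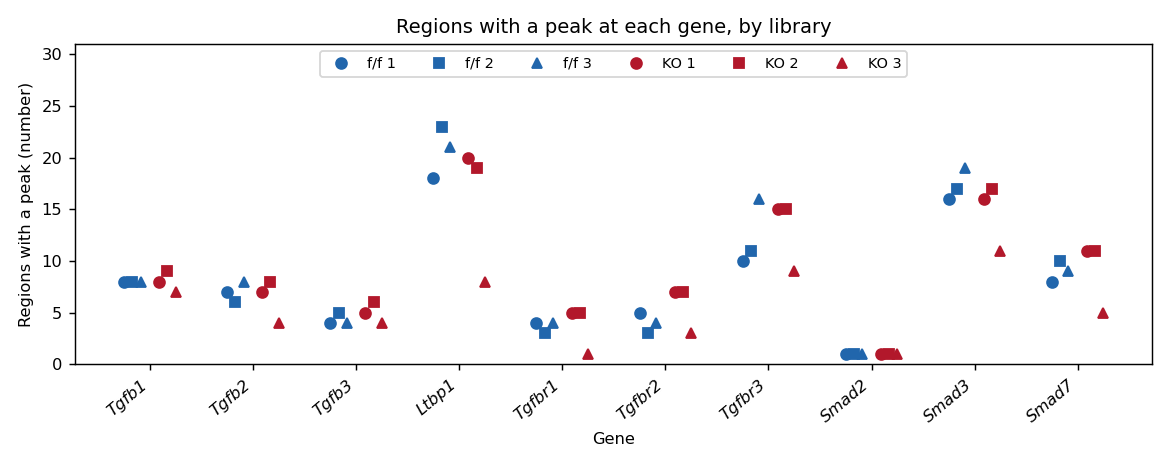
Number of regions with a peak (y axis) at each of the 10 genes (x axis), with 1 point per library, f/f in blue and KO in red. KO replicate 3 (red triangles) is lowest or tied for lowest at every gene, and at Tgfbr1, Tgfbr2 and Smad7 the other 2 KO libraries sit above the 3 f/f libraries.

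Peaks that were present in 1 group only were rare at these genes. Only 1 of 122 regions (0.820%) had a peak in 3 of 3 f/f and 0 of 3 KO libraries, against 3.75% of all regions, and 0 had the reverse, against 0.179%. The f/f-only region was chr1:186712765-186713257, which lay 7.02 kb upstream of the Tgfb2 start and outside the gene span. It was a weak peak in each f/f list, with list standings of 23.0, 21.6 and 21.9. KO replicates 1 and 2 alone shared 3 further regions (2.46%, against 2.72% of all regions).

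The KO regions of this last kind lay at Tgfbr1, Tgfbr2 and Smad7. The strongest was chr9:116138642-116139174 inside the Tgfbr2 span, 36.5 kb downstream of the start, with list standings of 41.0 and 41.5. The Smad7 region (chr18:75378645-75378998, inside the span) stood at 19.3 and 19.0, and the Tgfbr1 region (chr4:47425086-47425682, beyond the span) at 11.9 and 3.1. All 3 were below the middle of their lists.

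The regions found in all 6 lists were compared by shared standing, with limma over all 29849 such regions and Benjamini-Hochberg adjustment at 0.05. Of the 50 at the TGF-β genes, 3 (6%) stood higher in KO and 4 (8%) stood lower, against 11.4% and 10.3% of all shared regions. The called regions were selected by these same standings, so groups that do not overlap there add no further support. The median difference, KO minus f/f, was 0.6 percentile points over the 50 regions and -0.2 over all. The size of the difference, regardless of sign, had a median of 4.1 points over the 50 and 6.4 over all. Thus the TGF-β genes as a list held no larger share of called regions than the rest. Ranked by the fold at the summit in place of −log10 q, limma called 0 of the 50 in either direction, with 7 at an unadjusted p under 0.05, and 375 higher and 338 lower of all 29849, so that no call at the 50 regions holds under that ranking.

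**Figure D3:**
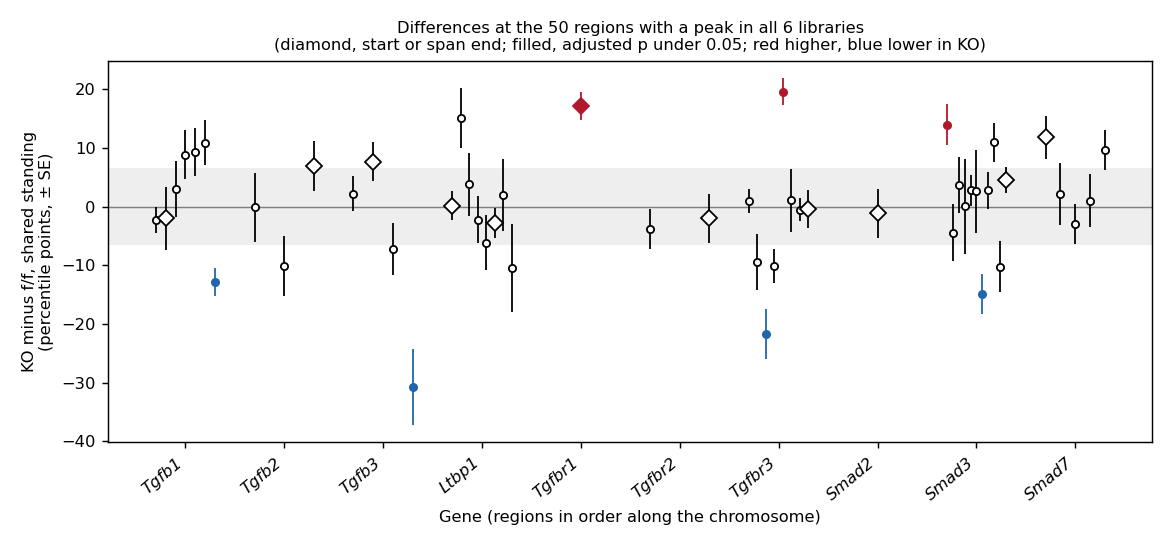
Difference in shared standing, KO minus f/f in percentile points with its SE from limma (y axis), for the 50 regions found in all 6 lists, grouped by gene (x axis). Diamonds are starts or span ends, filled points have an adjusted p under 0.05, red higher and blue lower in KO, and the grey band spans 6.4 points either side of 0, the median size over all shared regions. The Tgfbr1 start is the only start or span end past the threshold.

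At the ligands, the starts themselves did not pass the threshold. The Tgfb1 promoter region (chr7:25686616-25688418) had shared standings of 22.0, 40.4 and 36.5 in f/f and 26.9, 28.7 and 37.3 in KO, and the groups overlapped (difference -2.0, limma adjusted p = 0.83). The Tgfb2 promoter region (chr1:186705076-186706431) stood at 43.2, 50.8 and 51.9 in f/f and at 54.3, 49.2 and 63.0 in KO (difference 6.9, adjusted p = 0.297). The region at the start end of Tgfb3 (chr12:86078522-86079831) stood at 48.1, 38.6 and 40.7 in f/f and at 46.7, 51.3 and 52.5 in KO (difference 7.7, adjusted p = 0.147). The ligand starts thus lay near the middle of the shared regions or below it.

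The called regions at the ligands lay outside the ligand genes. At the Tgfb1 locus, chr7:25718440-25719608 stood at 74.9, 70.1 and 71.7 in f/f and at 61.2, 57.8 and 59.3 in KO. The groups did not overlap and the region was lower in KO by limma (difference -12.8, SE 2.4, adjusted p = 0.0135). It lost its call in 3 of the 6 sets of 5 libraries, without KO replicates 2 or 3 or f/f replicate 3 (adjusted p up to 0.0654). The region covers the promoter of the neighbouring gene Ccdc97 and lies 32.0 kb from the Tgfb1 start. The 3 regions between them, beyond the end of Tgfb1, had differences of 8.9, 9.3 and 10.9, the other way, and did not pass (adjusted p from 0.089 to 0.176).

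At the Tgfb3 locus, chr12:86091248-86092441 had the largest difference of the 50 regions. It stood at 49.0, 51.9 and 30.7 in f/f and at 18.9, 15.6 and 4.9 in KO, and every KO library was below every f/f library (difference -30.7, SE 6.5, adjusted p = 0.0209). The call was lost in 4 of the 6 sets of 5 libraries, namely without f/f replicate 1 or 2 or KO replicate 2 or 3 (adjusted p up to 0.0674). The region lies within the span of the neighbouring gene Ift43, 12.8 kb from the start end of Tgfb3. Tgfb3 was 1 of 2 genes whose median shared standing over its regions did not overlap between the groups, at 48.6, 37.6 and 35.7 in f/f and 30.7, 25.7 and 20.9 in KO, as at 21.9% of 15765 protein-coding genes in this direction. With 4 shared regions, 2 with positive and 2 with negative differences, that median did not describe the Tgfb3 start, whose difference was positive.

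At Ltbp1, 8 of 26 regions had a peak in all 6 libraries and 0 were called. The first promoter (region chr17:75004843-75006654) stood at 51.1, 57.3 and 54.7 in f/f and at 54.3, 53.7 and 55.8 in KO (difference 0.2, adjusted p = 0.96). The second (chr17:75177943-75179263), further into the gene, stood higher in every library, at 90.5, 85.8 and 89.5 in f/f and at 84.3, 83.8 and 89.2 in KO (difference -2.8, adjusted p = 0.481). The internal start was the higher of the pair by rank in both groups, and neither passed the threshold. The largest positive difference at the gene was that of chr17:75055271-75056812, which stood at 0.8, 0.9 and 7.8 in f/f and at 17.7, 9.0 and 28.2 in KO and did not pass (difference 15.1, adjusted p = 0.0834).

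The 5-library comparison without KO replicate 3 took in regions that this short list lacked. Over its 46992 shared regions, limma called 8.41% higher and 7.97% lower in KO. Of the 68 such regions at the TGF-β genes, limma called 3 higher and 2 lower, both smaller shares than among all shared regions. The 2 lower regions lay inside the Ltbp1 span. The region chr17:75258456-75259058 stood at 50.9, 49.4 and 43.4 in f/f and at 25.1 and 14.0 in KO (difference -28.3, SE 4.3, adjusted p = 0.0175). The region chr17:75272904-75273950 stood at 48.5, 46.9 and 45.0 in f/f and at 28.2 and 30.8 in KO (difference -17.2, SE 2.3, adjusted p = 0.0124). They lie 80.0 and 94.6 kb downstream of the second Ltbp1 start. The 5-library comparison was not run by fold.

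Among the receptors, the start of Tgfbr1 stood higher in KO. The promoter region, chr4:47351567-47353984, holds the first Tgfbr1 window printed above and overlaps the annotated gene Gm32435. Its best peak had a −log10 q of 148, 144 and 230 in f/f and of 438, 523 and 118 in KO, where the last value comes from the short list. Counted from the top, that peak was number 4610 of 64033, 6140 of 62781 and 6104 of 74797 in f/f, and number 448 of 64141, 721 of 64582 and 361 of 32958 in KO. The shared standings were 84.6, 79.5 and 79.6 in f/f and 98.5, 97.6 and 98.8 in KO. Every KO library was above every f/f library, and the region stood higher in KO by limma (difference 17.1, SE 2.4, adjusted p = 0.00568).

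The fold over background at the Tgfbr1 summit was 10.75, 8.31 and 9.0 in f/f and 13.33, 12.53 and 11.11 in KO. Ranked by that fold, the region stood at 55.8, 52.1 and 42.3 in f/f and at 69.5, 60.9 and 93.1 in KO, also without overlap (difference 24.4), and did not pass (adjusted p = 0.201). With each library left out in turn the call by −log10 q remained, with adjusted p from 0.0122 to 0.0337. Without KO replicate 3 the difference was 10.7 (adjusted p = 0.0337). It was the only region of Tgfbr1 with a peak in all 6 libraries, so it also sets the gene median, which lay above in every KO library, as at 19.6% of protein-coding genes.

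The chromatin around Tgfbr1 stood higher in KO as well. Of the 87 other shared regions within 2.5 Mb, 31 (35.6%) were called higher in KO, with a median difference of 8.2, and 19 had a difference as large as that of Tgfbr1. Over the stretch from 20 to 50 Mb of chromosome 4, without the Tgfbr1 region, 117 of 279 shared regions (41.9%) were called higher, with a median of 10.7, against the 11.4% of all shared regions. The bounds of that stretch were not among the planned settings, so its share is a description only. The part of these surroundings in the Tgfbr1 difference was not tested, and the DNA copy number of this stretch was not measured here.

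**Figure D4:**
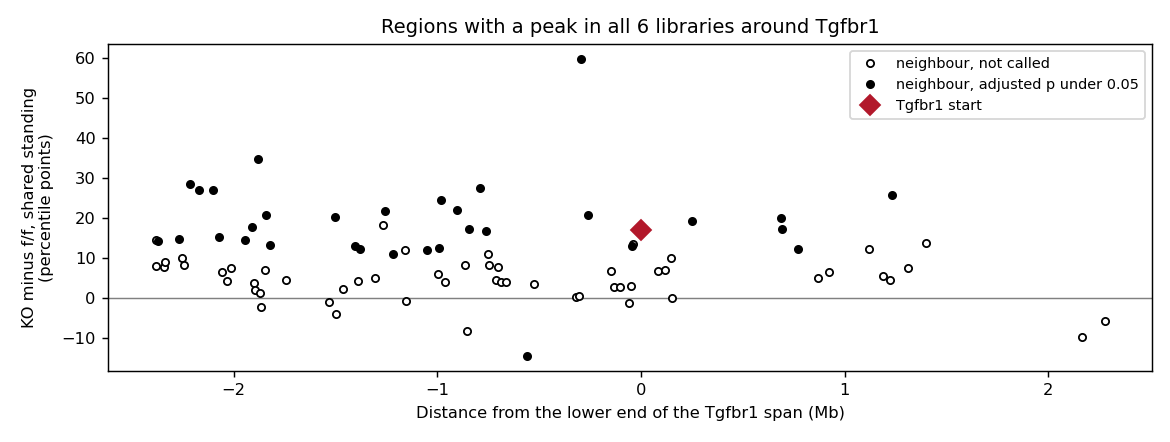
Difference in shared standing, KO minus f/f in percentile points (y axis), against distance from the lower end of the Tgfbr1 span in Mb (x axis), for every region with a peak in all 6 libraries within 2.5 Mb. The Tgfbr1 start (red diamond, 17.1) sits among neighbours whose median is 8.2, and filled circles are the neighbours with an adjusted p under 0.05.

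The starts of Tgfbr2 and Tgfbr3 did not pass the threshold. The Tgfbr2 promoter region (chr9:116174250-116176117) stood at 81.1, 83.4 and 76.2 in f/f and at 83.7, 80.9 and 70.0 in KO (difference -2.0, adjusted p = 0.767). The region at the start end of Tgfbr3 (chr5:107288649-107289930) was among the highest at 87.9, 90.2 and 96.2 in f/f and at 86.5, 92.8 and 93.9 in KO (difference -0.4, adjusted p = 0.951). Both starts were thus high in both groups, with overlapping libraries.

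Within Tgfbr3, which encodes betaglycan, regions moved in both directions by shared standing. The region chr5:107195760-107196623, inside the span and 93.4 kb from the start end, was near the bottom in f/f, at 1.8, 2.5 and 4.1, and at 25.5, 20.3 and 21.5 in KO (difference 19.6, SE 2.3, adjusted p = 0.00364). It remained called with each library left out, with adjusted p from 0.00549 to 0.0189. Its fold over background was 3.54, 3.12 and 4.15 in f/f and 7.01, 6.47 and 3.85 in KO, where KO replicate 3 was within the f/f range. The region chr5:107124071-107125384, 164.9 kb from the same end, went down from 86.5, 76.2 and 85.0 in f/f to 58.6, 68.0 and 56.0 in KO (difference -21.7, SE 4.3, adjusted p = 0.0169). That call was lost in 4 of the 6 sets of 5 libraries, without f/f replicate 1 or 3 or KO replicate 1 or 3 (adjusted p up to 0.0652). The fold of this lower region was 12.75, 8.69 and 10.95 in f/f and 11.36, 12.41 and 6.08 in KO. There KO replicates 1 and 2 were within the f/f range. By shared standing, the groups did not overlap at either region. Of the 8 shared regions at the gene, 1 was called up and 1 down, and the median difference was -0.4.

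Smad2 and Smad3, the Smads that the receptors phosphorylate, had high starts in both groups. The single Smad2 region (chr18:76240804-76242562) stood at 76.7, 91.1 and 85.4 in f/f and at 84.2, 79.3 and 86.4 in KO (difference -1.1, adjusted p = 0.877). The Smad3 promoter region (chr9:63756612-63758630), whose window (chr9:63757945-63758244, minus strand) had 67.7% G and C and 2 GC boxes, stood at 89.4, 87.3 and 91.0 in f/f and at 92.6, 94.9 and 93.7 in KO. Every KO library was above every f/f library there, but the difference of 4.5 did not pass (adjusted p = 0.185).

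Smad3 had more shared regions than the other 9 genes, 11 of 19, and inside it 1 region was higher and 1 lower in KO. The region chr9:63665069-63665693, 92.6 kb downstream of the start, stood at 11.7, 15.6 and 9.0 in f/f and at 19.9, 27.4 and 30.9 in KO (difference 14.0, SE 3.5, adjusted p = 0.037). The region chr9:63721436-63722249, 36.2 kb downstream, stood at 26.3, 16.9 and 15.1 in f/f and at 3.6, 6.5 and 3.9 in KO (difference -14.8, SE 3.4, adjusted p = 0.0278). The groups did not overlap in either, and both stood no higher than 30.9 among the shared regions in any library. The higher region lost its call in 5 of the 6 sets of 5 libraries (adjusted p up to 0.12) and the lower in 4 of the 6 (up to 0.0747). The other 9 shared regions of Smad3 did not pass.

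**Figure D5:**
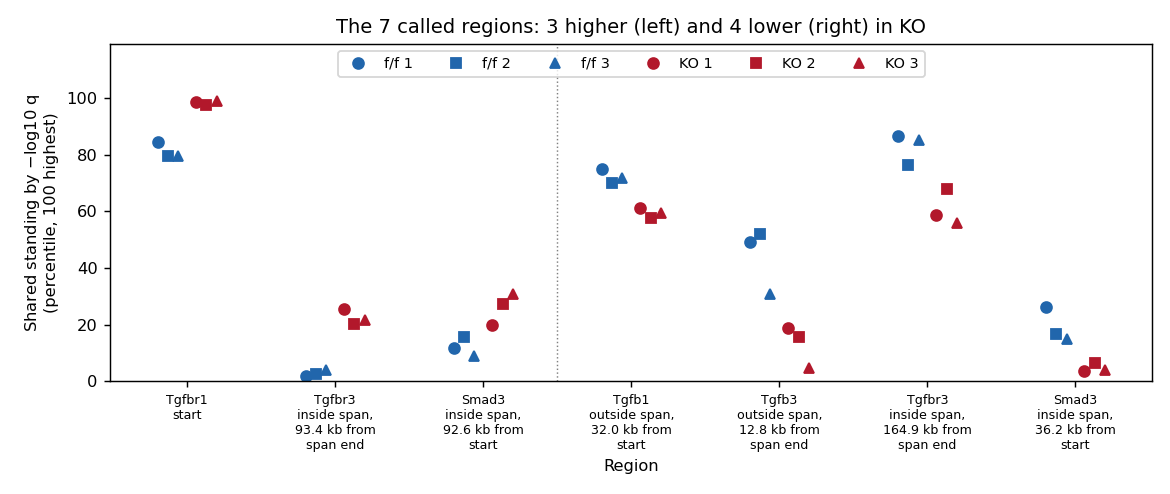
Shared standing by −log10 q (y axis, percentile, 100 the highest) of the 7 called regions (x axis, with their place relative to the gene) in each library, f/f in blue and KO in red. The 3 regions on the left are higher and the 4 on the right lower in KO. They were selected by limma on these same standings, so the separation of the groups follows largely from that choice.

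At Smad7, the inhibitory Smad, 0 of 5 shared regions were called. The region at the start end (chr18:75366316-75367892) stood at 53.9, 58.3 and 47.1 in f/f and at 64.7, 60.8 and 69.1 in KO, without overlap (difference 11.8, adjusted p = 0.0685). Inside the span, 2.0 kb from the start end, chr18:75369071-75369565 had a peak in every library but KO replicate 3. In the 5-library comparison it stood at 2.6, 3.7 and 1.6 in f/f and at 26.0 and 15.9 in KO, and limma called it higher (difference 18.3, SE 3.5, adjusted p = 0.0293). The start region and this one both stood higher in KO. The start region was called in neither comparison (limma adjusted p = 0.201 with 5 libraries). The other, without a peak in KO replicate 3, could be compared in the 5 libraries only.

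The wider pathway was read from 39 further genes, with 344 regions, 145 of them in all 6 libraries. Of these 145, 23 (15.9%) were called higher and 14 (9.66%) lower in KO, against 11.4% and 10.3% of all shared regions, and the median difference was 1.9. Smad partners and feedback regulators (11 genes) had 12 regions called higher and 5 lower of 48. Genes of the latent complex and its activation (10 genes) had 5 higher and 3 lower of 36, receptors and their partners (5 genes) 2 higher and 0 lower of 20, and target genes (13 genes) 4 higher and 6 lower of 41. Group-only regions numbered 6 in f/f (1.74%, against 3.75% of all regions) and 1 of 344 in KO (against 0.179%). A further 6 (1.74%, against 2.72%) had a peak in KO replicates 1 and 2 only.

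The largest differences of the wider pathway were at regulators of Smads and at matrix genes. A region over the lower end of the span of Skil, a corepressor of Smads, stood at 44.4, 51.0 and 44.7 in f/f and at 88.6, 88.3 and 96.9 in KO (chr3:31093725-31096128, difference 44.6, SE 3.4, adjusted p = 0.00126). A region inside Ltbp2, a matrix protein of the LTBP family, stood at 2.0, 1.6 and 1.9 in f/f and at 46.3, 45.4 and 31.7 in KO (chr12:84819268-84819828, difference 39.3, SE 4.2, adjusted p = 0.00272). These were larger than any difference at the 10 TGF-β genes, and came from 145 shared regions against 50. The calls of the wider pathway were not checked with each library left out.

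Regions lost standing at other genes of the pathway. A region beside Smurf2, a ubiquitin ligase for Smads and the receptor, stood at 79.9, 76.9 and 72.6 in f/f and at 44.1, 40.4 and 28.9 in KO (chr11:106930026-106931197, difference -38.7, SE 4.4, adjusted p = 0.00329), while the Smurf2 promoter region was called higher (difference 23.2, adjusted p = 0.00842). A region beside Lox, which cross-links collagen, stood at 43.1, 55.8 and 33.5 in f/f and at 6.2, 9.8 and 13.7 in KO (chr18:52535279-52536346, difference -34.2, SE 5.7, adjusted p = 0.00978). At Nrros, which holds latent TGF-β on myeloid cells, a region inside the span went from 97.8, 98.2 and 98.1 in f/f to 67.0, 69.1 and 77.2 in KO (chr16:32148806-32149824, difference -26.9, SE 3.1, adjusted p = 0.00341), and 2 more were f/f-only. Nrros had 6, 6 and 11 regions with a peak in f/f and 3, 3 and 1 in KO. Every KO library lay below every f/f library, as at 9.95% of protein-coding genes. The surroundings of Nrros on chromosome 16 were not compared.

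Smurf1, the close relative of Smurf2, had a region called higher by 32.2 points (adjusted p = 0.00767) and one called lower by limma with a difference of -27.9 (adjusted p = 0.00405), both inside its span. Regions inside Acvrl1, a type I receptor of the family, and Fbn1, the fibrillin to which LTBPs bind, were called higher by 30.2 points (adjusted p = 0.00766) and 30.0 points (adjusted p = 0.00671). A region inside Ski, the corepressor related to Skil, was called higher by 23.0 points (adjusted p = 0.00921). A region beside Itgb6, a subunit of the integrin that activates latent TGF-β, was lower (difference -24.8, adjusted p = 0.00803). The 1 KO-only region lay inside Lrrc32, which anchors latent TGF-β on the surface of T cells, with list standings of 19.1, 31.1 and 0.6. Ranked by fold, the regions at Ltbp2, Lox and Ski also passed (limma adjusted p = 0.0412, 0.0467 and 0.0364), and the other called regions of the wider pathway described here did not.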

How the data were processed

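Peak lists from ATAC-seq, 3 for OB Fam20c KO and 3 for its f/f parent, were analysed by the groups of the sample labels. Per the study's methods, the authors used Trimmomatic for trimming, BWA for alignment to mm10 and MACS2 2.1.2 for peak calling (q-value threshold 0.05). The deposited files hold 1 list per library. For each peak the deposited lists give a score (10 times the −log10 q), the fold enrichment at the summit, the −log10 p-value and the −log10 q-value, all made by the authors. These depend on the depth and background of the list, so only ranks within a list were compared, and read counts were not used here. Depth limits each list, and a missing peak means only that the authors' threshold was not passed.

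Peaks sharing 1 bp were joined, and regions overlapping a RefSeq gene span (GRCm38, the coordinates of mm10) extended by 20 kb were assigned to the gene. A region with several peaks in a library took the highest value. Regions found in every list were ranked within each, and the percentiles were fitted with limma 3.58.1 in R 4.3.3, without covariates, with Benjamini-Hochberg adjustment over all such regions at 0.05. Region numbers were compared by an exact permutation test (20 assignments). All starts, group-only regions, regions in KO replicates 1 and 2 only and called regions are named, with the 3 largest differences in each direction, and of the 39 pathway genes the 10 with the largest called differences. An item of the marker list is not reported here. Lrrc32 was named after its values were seen. The annotation gives spans without strand; starts came from the promoter table where it has the gene. The members, the pathway list, the motifs and the tests were chosen with earlier results of these data known. The alternatives were other peak strengths, numbers, overlaps, widths, distances and rank scales, each library left out, and a block for replicate number. The scripts were tested on simulated data. Python 3.11.15, numpy 2.4.6, pandas 2.3.3 and scipy 1.17.1 were used.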

Additional observations from a re-analysis of the deposited data

How the results depend on the processing

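The 10 genes with a peak at a start or span end in all libraries were 8 with narrow windows around the summits and 10 under the other alternatives run for them. The difference in region number turned positive with an equal number of peaks per list (2 regions higher in KO), and with a library left out it ranged from -13.3 to 9.17, the latter without KO replicate 3. The f/f-only regions, 1 in the main comparison, were 2 with equal numbers of peaks, with summit windows, with spans extended by 50 kb and with a peak in 2 of 3 libraries, 0 with 3 kb, and 1 to 4 with a library left out. The KO-only regions, 0 in the main comparison, were 1 with equal numbers of peaks, 3 with a peak in 2 of 3 libraries, and 0 to 3 with a library left out.

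The calls by limma, 3 higher and 4 lower, were 0 and 0 by fold and 0 and 0 by standing in the whole list, a ranking that called 0 of all 29849 regions, with 2793 at an unadjusted p under 0.05. With equal numbers of peaks 1 was higher, and 2 were lower with a −log10 q of at least 5 and with a 3 kb extension. With a library left out 2 to 3 were higher and 1 to 2 lower, and no called ligand-locus region passed without KO replicate 3. With summit windows, an alternative chosen after seeing the data, 3 were higher and 4 lower. The cause of these changes was not tested.

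Equal replicate numbers did not pair the libraries, with correlations of deviations of 0.068, -0.105 and -0.124. With the replicate block, limma called 2 higher and 2 lower, and the difference in region number was -5.33. Of the 80 alternative values of the gene medians, 69 moved by less than the spread between libraries and 11 moved more. Among those that moved, the median difference changed sign by fold at Ltbp1 (from -1.0 to 4.4) and Tgfbr2 (from -2.9 to 3.6), and by standing in the whole list at Smad3 (from 2.8 to -8.5) and Smad7 (from 2.2 to -8.0).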
